A study of Mus musculus with 5 samples.

Results

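Runx3 peaks at the Runx genes themselves and at their common partner were examined in IL-2-activated natural killer cells (NKC). The genes were Runx1, Runx2, Runx3 and Cbfb, and a peak was counted for a gene when it overlapped the gene or its 20 kb flanks, with genes taken from GENCODE M1 and coordinates in mm9. By this rule 23 of 11676 Runx3 peaks and 100 of 34204 H3K4me1 peaks belonged to the 4 genes. Chromatin came from splenic NKC of ICR mice, isolated by negative selection and grown for 7 days with IL-2 at 1000 units/ml. Per the labels the cultured cells were all NKp46+. The paper's methods also describe a sort for DX5+ cells before culture, and state that nearly all cells were NKp46+ at its end. Runx3 was precipitated with a polyclonal antiserum made in house (group Runx3_IP, 2 libraries), H3K4me1, a histone mark enriched at enhancers, with a monoclonal antibody (H3K4me1_IP, 1 library), and rabbit non-immune serum served as control (NIS, 2 libraries). The Runx3 peaks were called on the joined reads of the Runx3 libraries. Both peak lists hold starts and ends alone, so no value below has a replicate error and no test was possible. The depth behind a peak cannot be read from them. Whether a region without a peak was unbound or below the caller's threshold cannot be told apart.

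RUNX proteins are transcription factors that bind DNA through the Runt domain, and CBFβ, the product of Cbfb, binds no DNA itself but stabilises that binding. Each Runx gene is transcribed from a distal promoter and a proximal promoter, which give proteins with different N termini. Runx1 is required for definitive haematopoiesis, Runx2 for bone formation, and Runx3 acts in cytotoxic lymphocytes and sensory neurons. RUNX motifs occur at the distal promoters of this family, which raises the question of whether a Runx protein occupies its own gene and those of its relatives.

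The distal promoters of all 3 Runx genes carried the same tandem pair of RUNX motifs. The RUNX motif was searched on either strand as TGTGGT, the variant TGTGGC, the variant TGCGGT or else as TGCGGC. The pair was a repeat of the first of these on the same strand, with starts 8 bp apart. It is printed below because it is the element that the distal promoters share, in 30 bases of the mm9 reference around it. Each stretch runs 5′ to 3′ along the gene, with only the motifs of the pair in capitals. They read ACCACA since they lie on the strand opposite to the gene. The Runx2 stretch ends in a further RUNX motif, left in small letters, a TGCGGT on the gene's own strand starting 39 bp downstream of the TSS. The reference genome is not that of the ICR strain.
Runx1 distal promoter, chr16:92826270-92826299, minus strand: cataaacaACCACAgaACCACAagttgggt
Runx2 distal promoter, chr17:44951532-44951561, minus strand: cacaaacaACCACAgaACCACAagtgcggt
Runx3 distal promoter, chr4:134676418-134676447, plus strand: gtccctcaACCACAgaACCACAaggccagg

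In Runx1 the pair started 20 and 28 bp downstream of the distal TSS, in the first exon. In Runx2 it started 23 and 31 bp downstream of the TSS, also in the first exon. In Runx3 it lay upstream, its motifs starting at -141 and -133 bp. The 30 bases were identical at 27 positions between Runx1 and Runx2, at 19 between Runx1 and Runx3 and at 21 between Runx2 and Runx3. Any RUNX motif is common near a TSS, being found within 1 kb of the 5′-most coding TSS in 97% of 22342 promoters, whereas the pair lay within 300 bp in 8 promoters (0.0358%) and within 1 kb in 19 (0.0850%). The pair and its spacing were defined by what the Runx promoters share. Their presence among the 8 was thus fixed by that choice, and the rarity of the pair is no independent support. Runx2 has 2 gene records in the annotation, so the 8 promoters belong to 7 genes, of which the others were Card6, Olfr24, Nlrp4b and Fbxw21. The pair lay in a Runx3 peak at 3 of these 8, namely at Runx1, Runx3 and Card6. In the Runx1 and Runx3 peaks it lay outside the central 200 bases, which held 1 other RUNX motif in each. Which of the motifs in a peak was bound was not tested. The 14-base core common to the 3 Runx promoters, ACCACAGAACCACA, occurred 136 times on the autosomes and chromosome X, and 16 copies (11.8%) lay in a Runx3 peak. A further copy in the Runx3 window, downstream of the gene (chr4:134734631-134734644), lay in an H3K4me1 peak and in no Runx3 peak.

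A Runx3 peak covered the distal TSS of Runx1 and that of Runx3, but none lay at the distal promoter of Runx2. A peak was assigned to a promoter if no more than 1 kb separated its centre from an annotated TSS of that promoter, which held for at least 1 coding TSS in 12.6% of 22350 protein-coding genes. Among the members it held for Runx1 and Runx3 and not for Runx2 and Cbfb.

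**Figure D1:**
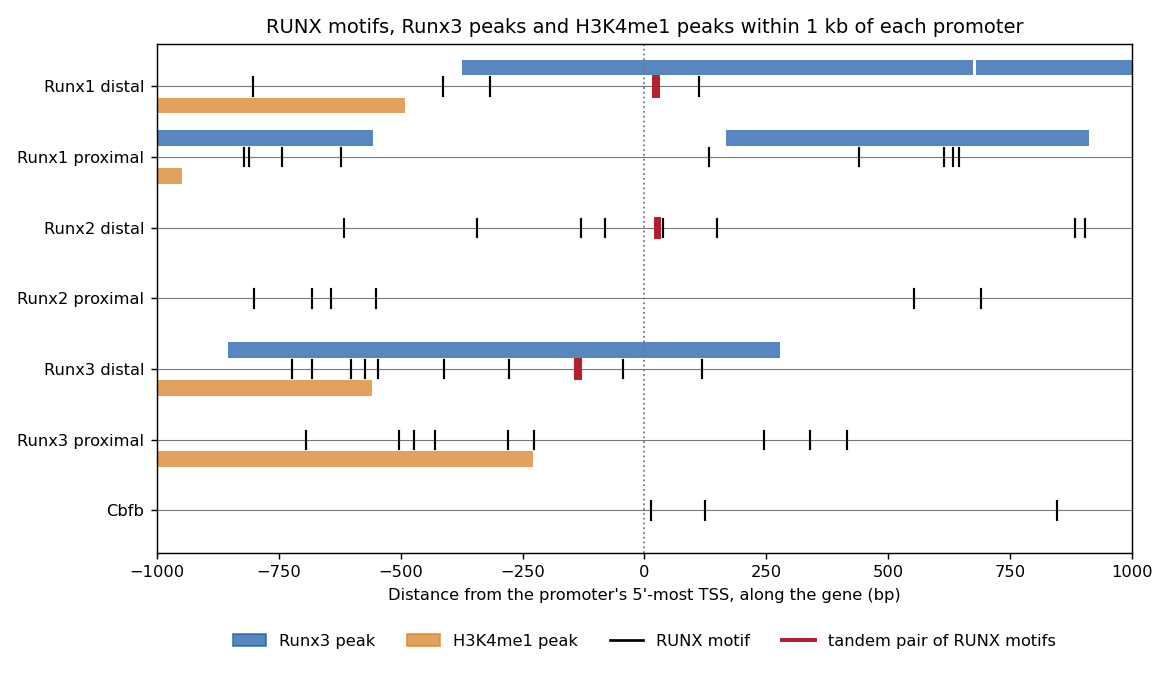
RUNX motifs (ticks, the tandem pair in red), Runx3 peaks (blue) and H3K4me1 peaks (orange) within 1 kb of each promoter, drawn along the gene in bp from the promoter's 5′-most TSS. Runx3 peaks cover the distal TSSs of Runx1 and Runx3, the 10 motifs at the Runx2 distal promoter lie under no peak, and no TSS lies in an H3K4me1 peak.

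At the Runx3 distal promoter, the peak (chr4:134675712-134676846, 1135 bp) was centred 288 bp upstream of the TSS. All 11 RUNX motifs found within 1 kb of that TSS lay inside the peak, 9 of them on the strand opposite to the gene. Only 0.694% of promoters had as many motifs in 2 kb. The most frequent variant was TGTGGC with 6 copies, followed by TGTGGT with 4. Only 118 Runx3 peaks of the list (1.01%) held 11 or more. An H3K4me1 peak overlapped the upstream end of the Runx3 peak and covered 26.3% of it, ending 558 bp short of the TSS, and the next one began 6.02 kb downstream. The peak also overlapped Gm16225, a noncoding gene annotated just upstream of Runx3 on the opposite strand without overlapping it. The 5′ end of Gm16225, at 134676362, lay inside the peak as well. Which of the 2 genes the peak belongs to cannot be told apart.

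No Runx3 peak lay at the proximal promoter of Runx3, 31.8 kb downstream, the nearest being centred 6.59 kb further downstream, although 9 RUNX motifs were found within 1 kb of the TSS. There 5 of the 9 motifs were the CG-containing forms TGCGGC and TGCGGT, against 1 of 11 at the distal promoter. The 300 bp upstream of the proximal TSS had a GC content of 74.7% with 35 CpG dinucleotides, against 62.3% and 8 at the distal promoter. H3K4me1 ended 229 bp upstream of the proximal TSS and resumed 3.17 kb downstream. The 300 bp upstream of each TSS are printed to show how the promoter with a peak and the promoter without one differ in motifs, with RUNX motifs in capitals.
Runx3 distal promoter, chr4:134676267-134676566, plus strand: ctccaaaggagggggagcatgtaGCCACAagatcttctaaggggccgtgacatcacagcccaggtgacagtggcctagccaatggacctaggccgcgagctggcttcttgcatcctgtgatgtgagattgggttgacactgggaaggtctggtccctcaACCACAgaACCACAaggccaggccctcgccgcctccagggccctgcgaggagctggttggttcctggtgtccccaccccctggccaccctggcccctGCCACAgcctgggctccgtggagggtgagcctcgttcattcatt
Runx3 proximal promoter, chr4:134708111-134708410, plus strand: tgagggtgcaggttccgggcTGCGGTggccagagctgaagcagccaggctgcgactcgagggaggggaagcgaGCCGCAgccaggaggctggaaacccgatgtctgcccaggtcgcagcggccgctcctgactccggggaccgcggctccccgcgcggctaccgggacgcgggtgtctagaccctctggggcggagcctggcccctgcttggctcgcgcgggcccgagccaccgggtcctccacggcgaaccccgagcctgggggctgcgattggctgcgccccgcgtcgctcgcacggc

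The first of these stretches held 4 RUNX motifs and the second 2. A motif in the 300 bp upstream was found in 42.8% of all promoters.

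Both promoters of Runx1 had Runx3 peaks. The distal peak (chr16:92825636-92826686, 1051 bp) included the TSS, the first exon and 4 of the 6 RUNX motifs found within 1 kb, all 6 of which lay on the strand opposite to the gene. It overlapped no H3K4me1 peak. The mark flanked it, ending 492 bp upstream of the TSS and resuming 2.41 kb downstream. At the proximal promoter, 128.7 kb downstream, 2 peaks lay within 1 kb of the annotated TSSs. The first (chr16:92698129-92698758, 630 bp) was centred 870 bp upstream of the 5′-most of these TSSs and the second (chr16:92696660-92697406, 747 bp) 540 bp downstream of it, in an exon, so that neither was centred within 500 bp. Together they held 8 of the 9 motifs found within 1 kb. Here 7 of the 9 motifs were CG-containing, against 1 of 6 at the distal promoter. The upstream peak overlapped H3K4me1 over 37.6% of its length and the downstream one not at all.

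Neither promoter of Runx2 had a Runx3 peak. The nearest was centred 160.0 kb downstream of the distal TSS, well inside the gene. The distal promoter held 10 RUNX motifs within 1 kb, a number reached by 1.28% of promoters. Of these 7 were TGTGGT, the tandem pair included. The nearest H3K4me1 peak to the distal TSS was 85.8 kb downstream, whereas at the distal promoters of Runx1 and Runx3 the mark came within 492 and 558 bp. The proximal promoter of Runx2, 78.0 kb downstream of the distal TSS, held 6 motifs and no peak, and the nearest H3K4me1 lay 7.79 kb downstream. A number of 6, found also at the Runx1 distal promoter with its peak, was reached by 19.9% of promoters. The 9 motifs at the Runx1 proximal promoter, with peaks, and at the Runx3 proximal promoter, without one, were reached by 2.70%. Only uniquely aligned reads were used for peak calling. Of the 40-base words within 500 bp of the Runx2 distal TSS, 99.2% occurred once in the genome, against 100% at the distal promoters of Runx1 and Runx3. The parts of motifs, H3K4me1 and read alignment in the missing peak were not tested.

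Across the whole loci, 3 of the 4 members had a Runx3 peak in the gene or its flanks, where 41.1% of protein-coding genes did. Among genes at least as long as the shortest member that share was 51.1%. Runx1 had 14, Runx3 had 6, Runx2 had 3 and Cbfb had 0. The counts depend on the length of sequence scanned, and per 100 kb of window Runx3 ranked first among the members with 6.16 peaks, followed by Runx1 with 5.29 and Runx2 with 0.836. All 4 members had an H3K4me1 peak, as did 51.1% of protein-coding genes, with 39 at Runx1, 30 at Runx3, 29 at Runx2 and 2 at Cbfb.

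**Figure D2:**
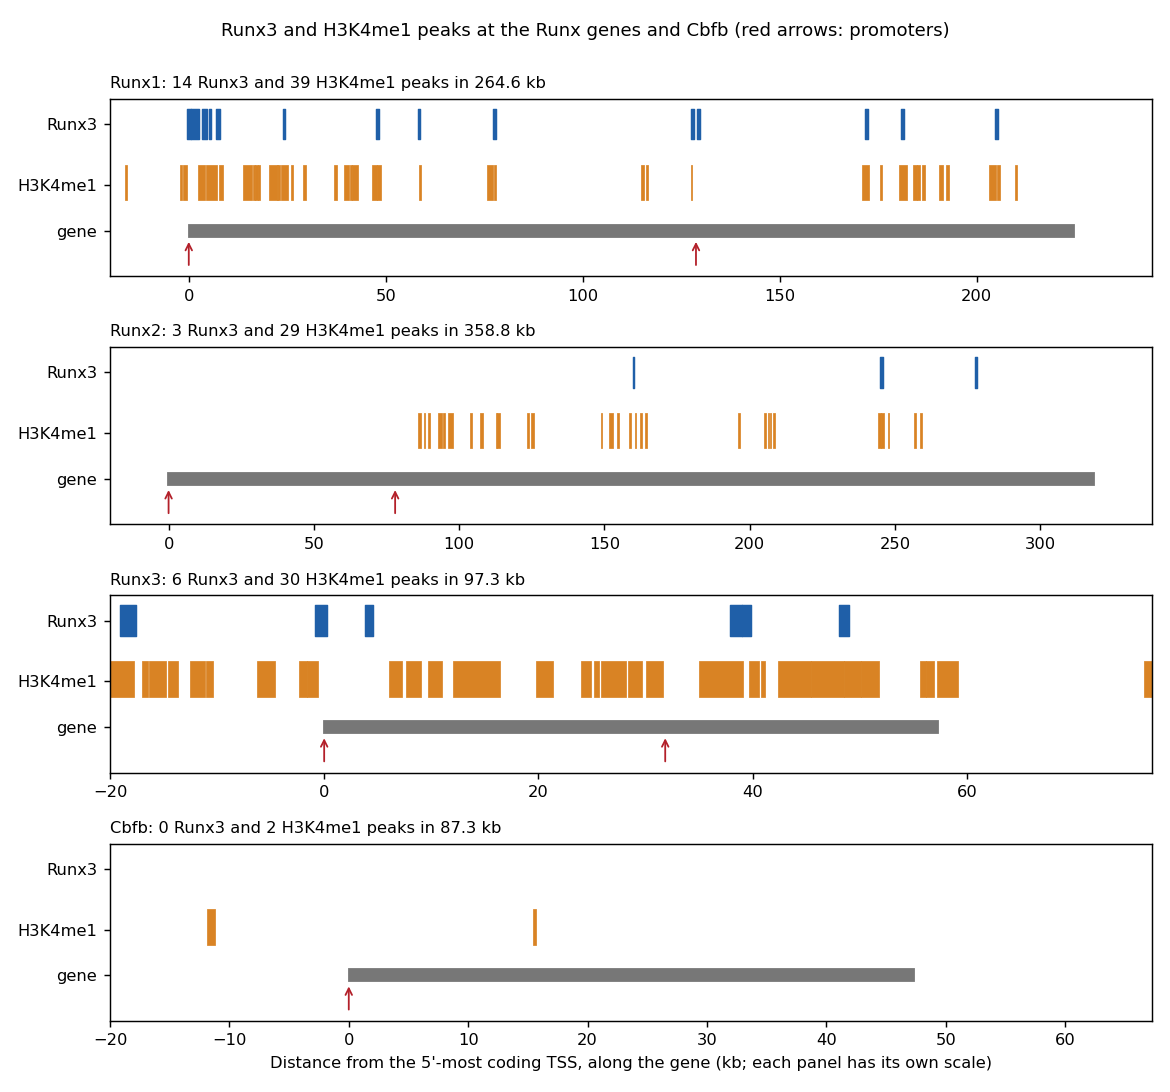
Runx3 peaks (blue), H3K4me1 peaks (orange) and the gene (grey) in each window, in kb from the 5′-most coding TSS along the gene, with red arrows at the promoters. Runx1 has 5 peaks within 7.36 kb of its distal TSS, Runx3 is flanked and filled by H3K4me1, Runx2 has no mark before the second promoter, and the Cbfb window has no Runx3 peak.

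Of the 23 Runx3 peaks, 18 (78.3%, 95% Wilson interval 58.1 to 90.3%) overlapped an H3K4me1 peak, where 48.4% of all Runx3 peaks did. The overlap was 12 of 14 at Runx1, 5 of 6 at Runx3 and 1 of 3 at Runx2. When the centre of the Runx3 peak had to lie in the mark, the share was 11 of 23 (47.8%, 29.2 to 67.0%), against 28.2% of all Runx3 peaks. A RUNX motif was found in 22 of the 23 (95.7%, 79.0 to 99.2%), where 96.0% of all Runx3 peaks had one, a share near the background. The interval covers counting error only, and peaks of the same gene are not independent of each other. Peaks of the members were 800 bp wide at the median and held 4 motifs, against 704 bp and 3 over the whole list. The 107 motifs in them comprised 66 TGTGGT (61.7%), 28 TGTGGC, 7 TGCGGT and 6 TGCGGC, and over the whole list TGTGGT made up 51.3%. TGTGGT made up 42 of 60 motifs in Runx1 and 16 of 37 in Runx3, where TGTGGC was the most frequent with 18. A single Runx1 peak, described further on, gave 21 of those 42, and without it TGTGGT made up 21 of 39 motifs in Runx1 (53.8%) and 45 of 86 in the members (52.3%), near the share over the whole list, a comparison added once the data had been seen. The AP-1 motif, TGACTCA or its reverse complement TGAGTCA, was in 12 of the 23 peaks (52.2%, 33.0 to 70.8%) and in 26.2% of all Runx3 peaks. It marks sites of Fos and Jun family factors. No test was run on these shares, as the 4 genes are a chosen list.

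**Figure D3:**
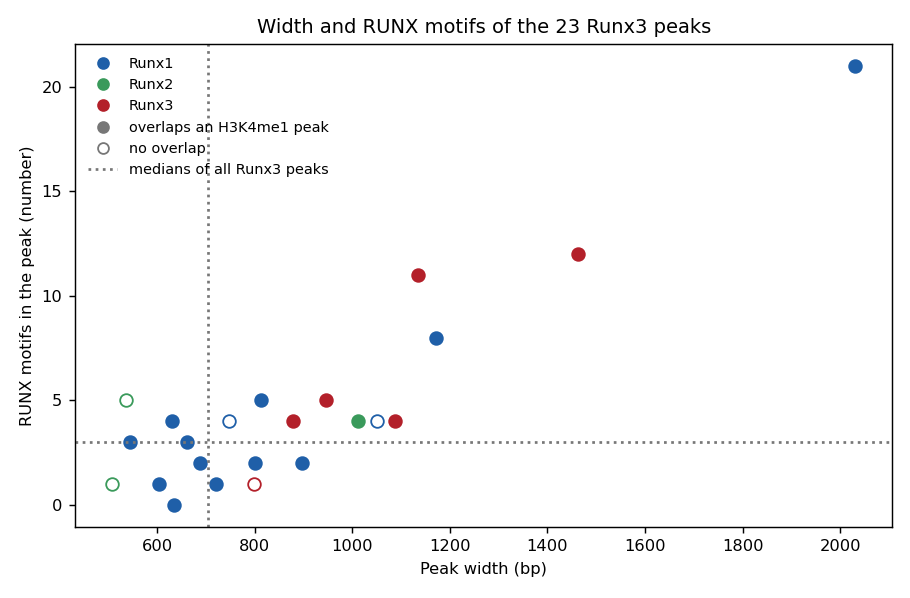
Width in bp and number of RUNX motifs of the 23 Runx3 peaks, coloured by gene, filled where the peak overlaps H3K4me1, with dotted lines at the medians of all Runx3 peaks (704 bp and 3 motifs). The widest peak, of 2031 bp with 21 motifs, is in Runx1, and the peaks with 12 and 11 motifs are upstream of Runx3 and at its distal promoter.

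Runx1 is transcribed from the minus strand of chromosome 16 (92601712 to 92826311) and is 224.6 kb long. All 14 of its peaks overlapped the gene, 13 with the centre in an intron and 1 in an exon. Only 4 of 22350 protein-coding genes (0.0179%) had as many peaks, Runx1 included. The others had longer windows than the 264.6 kb of Runx1. They were a record named Gm20388 with 89 peaks in 4475 kb, Fgfr2 with 17 in 3049 kb and Arhgap26 with 14 in 815 kb. Next came 4 genes tied at 13, Btbd9 being the first of them by symbol. No other gene had the same number of Runx3 peaks together with the same number on H3K4me1. Per length it stood less far out, as 638 genes (2.85%) had as many peaks per 100 kb.

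The peaks of Runx1 fell into 2 clusters and a scattered remainder. The first 5 lay between the distal TSS and 7.36 kb downstream of it, at 0.15, 1.70, 4.06, 5.43 and 7.36 kb. Another 4 were centred 24.2, 47.9, 58.5 and 77.7 kb downstream of that TSS, each of them overlapping H3K4me1. The pair at the proximal promoter followed, and the last 3 were centred 43.3, 52.4 and 76.2 kb downstream of the proximal TSS, also on H3K4me1. The peak at 24.2 kb (chr16:92801770-92802373, 604 bp) lay wholly in H3K4me1 and held a single RUNX motif. Its central 200 bases are given since the first intron of Runx1 is known to contain a haematopoietic enhancer downstream of the distal promoter. That motif, a TGCGGT, is in capitals.
Runx1 intronic peak, chr16:92801972-92802171, minus strand: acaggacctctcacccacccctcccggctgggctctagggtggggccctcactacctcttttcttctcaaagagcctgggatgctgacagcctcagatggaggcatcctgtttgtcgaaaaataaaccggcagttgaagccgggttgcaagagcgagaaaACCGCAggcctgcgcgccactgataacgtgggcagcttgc

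The second peak of Runx1 (chr16:92823601-92825631) was among the widest in the list, with only 17 of 11676 peaks at least as wide. Its motifs were unevenly placed. All 21 were TGTGGT on the same strand, and 17 of them lay in a run of 398 bp (chr16:92824227-92824624) made of TG repeats, in which 87.2% of the bases along the gene were T or G and 70.4% fell in a TG step. Outside that run the peak held 4 motifs in the remaining sequence. There were 30 peaks in the list with as many motifs, up to 55 in a peak. The densest 300 bases are shown to make the repeat visible, with motifs in capitals. Where motifs overlap they share letters.
Runx1 repeat run, chr16:92824201-92824500, minus strand: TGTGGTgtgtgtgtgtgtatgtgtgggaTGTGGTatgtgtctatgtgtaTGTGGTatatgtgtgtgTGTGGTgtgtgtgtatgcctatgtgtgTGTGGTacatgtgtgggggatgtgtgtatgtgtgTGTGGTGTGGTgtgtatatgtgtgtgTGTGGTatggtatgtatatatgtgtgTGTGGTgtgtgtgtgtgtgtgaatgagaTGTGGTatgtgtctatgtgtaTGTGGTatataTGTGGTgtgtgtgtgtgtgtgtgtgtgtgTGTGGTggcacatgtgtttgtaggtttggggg

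Of the 40-base words inside the run, 97.5% occurred once in the genome, against 99.9% in the rest of the peak, and the part of the repeat in the width of the peak was not tested. Of the 23 Runx3 peaks, 20 were made of unique words throughout, and the lowest share was 97.2%, at the Runx1 peak centred 43.3 kb downstream of the proximal TSS.

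The fourth peak of Runx1 (chr16:92820568-92821202, 635 bp) was the single member peak with no RUNX motif, and it lay wholly in H3K4me1. Its central 200 bases held a near-repeat with 2 copies of GGAAGTGG, a word that contains GGAA, the core of ETS family motifs. This word was picked after the sequence was seen. It occurred in 14.1% of all Runx3 peaks and in 20.1% of the 467 without a RUNX motif.
Runx1 peak without a RUNX motif, chr16:92820786-92820985, minus strand: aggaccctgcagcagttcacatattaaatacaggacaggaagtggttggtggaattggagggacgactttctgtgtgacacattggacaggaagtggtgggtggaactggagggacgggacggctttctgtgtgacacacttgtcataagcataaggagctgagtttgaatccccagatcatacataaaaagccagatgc

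H3K4me1 at Runx1 covered 39.7 kb of the 264.6 kb window (15.0%), and 758 genes (3.39%) were covered as much. Of its 39 H3K4me1 peaks, 13 overlapped a Runx3 peak. The window held 548 RUNX motifs in all, 2.07 per kb, and its Runx3 peaks held 5.0 per kb. Of the 60 motifs in those peaks, the second peak held 21, of which 17 lay in its repeat run. Beyond the distal promoter peak, no Runx3 peak lay within 20 kb upstream of the gene. Further out, 6 were centred between 26.4 and 60.2 kb upstream of the distal TSS, 5 of them on H3K4me1 and none in another coding gene.

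Runx3 lies on the plus strand of chromosome 4 (134676567 to 134733905) and is 57.3 kb long. Its 6 peaks were reached by 163 genes (0.729%), and 436 genes (1.95%) had as many per 100 kb. It shared its count of peaks, and of peaks on H3K4me1, with 20 other genes. Its locus stood out more for H3K4me1. The mark covered 46.1 kb of the 97.3 kb window (47.3%), and only 4 of 22350 genes (0.0179%), Runx3 included, were covered as much. Mknk2 with 49.3%, Mob3a with 48.7% and Polr2e with 48.5% were the genes above it, and Irf8 with 46.9% came next, all chosen after their values were seen. Their windows were shorter, from 43.8 to 60.3 kb. The H3K4me1 peaks at Runx3 had a median width of 1374 bp and reached 4382 bp, against a median of 718 bp at Runx1, 658 bp at Runx2 and 689 bp over the whole list.

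**Figure D4:**
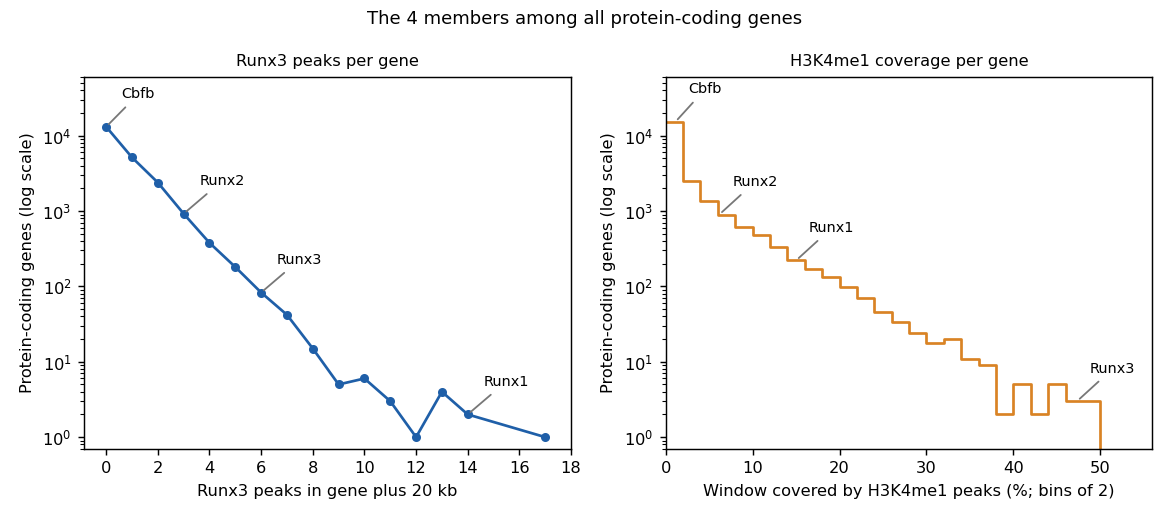
Left, protein-coding genes (log scale) by the number of Runx3 peaks in the gene plus 20 kb, with 1 record of 89 peaks beyond the axis. Right, genes (log scale) by the percentage of that window covered by H3K4me1, in bins of 2 percentage points. Runx1 lies near the end of the left distribution and Runx3 near the end of the right one, and Cbfb is at 0 peaks and 1.10% coverage.

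Apart from the distal promoter peak, Runx3 had 1 peak upstream and 4 in introns. The upstream peak (chr4:134657538-134659000, 1463 bp) was centred 18.3 kb before the distal TSS and held 12 RUNX motifs, and H3K4me1 covered 87.9% of it. It lay just inside the 20 kb flank. The first peak outside that limit, centred 22.0 kb upstream (chr4:134653533-134655642), was wider and richer, with 2110 bp and 14 motifs, and both touched the same H3K4me1 peak of 3256 bp. In all, 7 further Runx3 peaks lay between 22.0 and 67.7 kb upstream of the distal TSS. Each of the 7 overlapped H3K4me1, each held at least 2 motifs, and none lay in another coding gene. On the other side, the next Runx3 peak was 152.0 kb downstream of the distal TSS, inside Clic4, a chloride intracellular channel gene.

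Of the 4 intronic peaks, the first, centred 4.18 kb downstream of the distal TSS, overlapped no H3K4me1 and held 1 motif. The next 2 (chr4:134714457-134715544 and chr4:134715558-134716435) were neighbours, centred 6.59 and 7.58 kb downstream of the proximal TSS. The former lay wholly in H3K4me1 and the latter over 38.3% of its length, and both held 4 motifs. The last (chr4:134724594-134725540) was centred 16.7 kb downstream of the proximal TSS, held 5 motifs and an AP-1 motif, and was covered by H3K4me1 over 93.8%. The centre of one neighbour and that of the last peak are printed because they come from a peak next to the peak-free proximal promoter and from the last peak of the gene, both almost wholly in the mark. RUNX motifs are in capitals.
Runx3 intronic peak nearest the proximal promoter, chr4:134714901-134715100, plus strand: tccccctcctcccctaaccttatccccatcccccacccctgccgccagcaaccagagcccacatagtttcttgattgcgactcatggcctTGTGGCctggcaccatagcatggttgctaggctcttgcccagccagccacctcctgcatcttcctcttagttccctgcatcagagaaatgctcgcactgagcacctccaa
Runx3 last intronic peak, chr4:134724968-134725167, plus strand: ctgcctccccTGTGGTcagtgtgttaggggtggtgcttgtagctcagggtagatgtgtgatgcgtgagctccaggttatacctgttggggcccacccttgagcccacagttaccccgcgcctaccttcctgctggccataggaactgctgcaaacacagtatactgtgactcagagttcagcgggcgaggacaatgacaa

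Runx2, on the minus strand of chromosome 17 (44632936 to 44951746), is the longest of the members with 318.8 kb, and had 3 Runx3 peaks. A count of 3 or more was found for 1646 genes (7.36%), and 8393 genes (37.6%) had as many per 100 kb. All 3 lay in introns downstream of the proximal promoter, centred 82.0, 167.5 and 199.9 kb from its TSS. The middle one (chr17:44705642-44706652, 1011 bp) held 4 RUNX motifs, and H3K4me1 covered 94.7% of it. The first (508 bp, 1 motif) lay 169 bp from the nearest H3K4me1 peak and the last (536 bp, 5 motifs) 18482 bp from it. The centres of the middle and the last peak are printed to set the marked one beside the unmarked one. In the last, the central 200 bases alone held 4 motifs.
Runx2 middle peak, chr17:44706048-44706247, minus strand: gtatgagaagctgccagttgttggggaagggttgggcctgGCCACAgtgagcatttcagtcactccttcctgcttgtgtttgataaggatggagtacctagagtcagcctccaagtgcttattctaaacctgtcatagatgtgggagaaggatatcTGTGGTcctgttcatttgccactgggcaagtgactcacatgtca
Runx2 last peak, chr17:44673550-44673749, minus strand: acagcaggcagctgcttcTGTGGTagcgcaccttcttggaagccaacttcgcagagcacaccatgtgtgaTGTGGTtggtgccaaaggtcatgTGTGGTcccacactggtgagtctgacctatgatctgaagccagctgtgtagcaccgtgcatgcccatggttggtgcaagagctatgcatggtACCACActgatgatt

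All 29 H3K4me1 peaks of the Runx2 window lay inside the gene and downstream of the proximal promoter, and covered 22.1 kb (6.17%), a share reached by 3122 genes (14%). The window held 574 RUNX motifs, of which 10 lay in Runx3 peaks. Supt3h, a protein-coding gene on the opposite strand, overlaps the 5′ part of Runx2, and no Runx3 peak overlapped Supt3h. No Runx3 peak lay between 20 and 100 kb outside either end of Runx2.

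Cbfb, on the plus strand of chromosome 8 (107694574 to 107741886, 47.3 kb), had no Runx3 peak, like 13157 of the 22350 protein-coding genes in all. It has 1 annotated promoter, with 3 RUNX motifs within 1 kb, all of them TGCGGC, and 28 CpG dinucleotides in the 300 bp upstream. The nearest Runx3 peak in either direction began 41.4 kb beyond the 3′ end of the gene. That peak (chr8:107783240-107784224) lay in Tradd, which encodes an adaptor of tumour necrosis factor receptor signalling, held 6 motifs and overlapped H3K4me1. On the other side the gap was 145.1 kb. The 2 H3K4me1 peaks of the window, of 658 and 306 bp, covered 1.10% of it, and 40.6% of genes were covered at least as much. The window held 138 RUNX motifs, 1.58 per kb.

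Other genes of RUNX complexes were counted from a list of 24 cofactors and enzymes known to act on RUNX proteins. A Runx3 peak in the gene or its flanks was found for 14 of them (58.3%), where 41.1% of all genes had one. Among genes at least as long as the shortest member the share was 51.1%, and the cofactors were not matched for length. Among the Groucho and ETO family corepressors, 5 of 8 had a peak, namely Tle1, Tle2, Tle3, Tle4 and Aes, and the ETO genes Runx1t1, Cbfa2t2 and Cbfa2t3 had none. Of the corepressor complex genes Sin3a, Ncor1, Hdac3 and Suv39h1, all but Suv39h1 did. Among 7 coactivators 4 had a peak, with none at Kat6a, Yap1 and Wwtr1. Of 5 modifying enzymes, Cdk6, a cyclin-dependent kinase, had 7 peaks and Pim1, a serine/threonine kinase, had 4, and the ubiquitin ligases Smurf1, Smurf2 and Wwp1 had none. No cofactor gene reached the 14 peaks of Runx1, but Cdk6 with 7 exceeded the 6 of Runx3. The windows differed in length, with 264.6 kb for Runx1 against 44.6 kb for Pim1, so these counts do not rank the genes by density. Pim1 had the highest H3K4me1 coverage of the list with 21.2%.

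The labelled cell type was set beside its markers through H3K4me1, since no expression was measured in these files. All 9 NK cell genes looked up (Ncr1, Klrb1c, Klrd1, Klrk1, Eomes, Tbx21, Il2rb, Prf1 and Gzmb) had an H3K4me1 peak and a Runx3 peak in the gene or its flanks, and 7 of them a Runx3 peak at the promoter. Of 12 genes of T cells, B cells and myeloid cells, 9 had an H3K4me1 peak, with Cd8a, Ms4a1 and Lyz2 lacking one, 7 had a Runx3 peak in the gene or its flanks, and 0 had one at the promoter. Over all protein-coding genes these shares were 51.1% for H3K4me1, 41.1% for Runx3 and 12.6% for Runx3 at the promoter, so the absence of promoter peaks among 12 genes is near the background. Peaks are no measure of expression, and how cells of other types contributed to the peaks of the members was not tested.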

How the data were processed

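Per the labels, the authors mapped reads of 40 bp to mm9 by ELAND, and the methods also allow slightly longer reads. Reads with a unique alignment went into MACS version 1.4, run on the joined repeats with NIS as control and the deeper dataset scaled down. The deposited files hold peak boundaries in bp and no scores, and nothing in them is given per library. The methods and the labels differ on the number of H3K4me1 libraries, and the labels' 1 is used.

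Peaks were compared with GENCODE M1 genes and the sequence of the same build, leaving out chromosome Y, with 1 bp as the smallest overlap. TSSs up to 1 kb apart formed 1 promoter. The proximal promoter was the TSS group at least 5 kb downstream whose transcripts start at another codon and encode the N terminus typical of that promoter. The members are named in full, with Gm16225 and Supt3h from the genes in their windows. The other annotated genes there overlapped no Runx3 peak and are not named. Also given are the 5 genes with the most Runx3 peaks, genes with the same peak counts, and a cofactor list, of which Kat6a and Kat6b were matched by older symbols. Members and lists were chosen with earlier results of these data known. Uniqueness was counted over words of 40 bases on both strands of the whole genome. Overlap, motif and word counts were tested on simulated data. Tools were python 3.11.15, numpy 2.4.6, scipy 1.17.1, pysam 0.24.0 and matplotlib 3.10.9.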

Additional observations from a re-analysis of the deposited data

How the results depend on the processing

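Of 74 alternatives, 58 moved a value by less than its interval or left a count within 1.5 times, and 16 moved it further. No paired analysis was possible because the peak lists hold no values per library, and no library could be left out. With flanks of 50 kb, Cbfb had 2 Runx3 peaks and 4 H3K4me1 peaks, and with 100 kb, chosen after seeing the data, it had 3 Runx3 peaks and Runx3 had 14. In the gene body and with flanks of 5 kb, Cbfb had 1 H3K4me1 peak. Joining H3K4me1 peaks less than 1 kb apart left 20 at Runx1 and 11 at Runx3. Without its peak richest in motifs, TGTGGT made up 53.8% of the motifs in Runx1 peaks. With the centre of the Runx3 peak inside H3K4me1, 11 of the members' peaks overlapped. With at least 50% of the Runx3 peak covered, 12 of 23 did, as did 31.6% of all Runx3 peaks. TGTGGT alone was found in 16 of 23 (69.6%) and in 75.9% of all Runx3 peaks. Both settings were among the 58 because their counts stayed within 1.5 times, though their shares fell below the intervals given above. Within 2 kb of its distal TSSs Runx1 had 2 Runx3 peaks, and within 500 bp of its proximal TSSs it had 0. The share of protein-coding genes with a Runx3 peak was 23.2% in the gene body, 28.8% with 5 kb, 55.4% with 50 kb and 51.1% among genes at least as long as the shortest member. Each of these changes follows from the window, joining, limit, motif or left-out peak itself. Depth limits what a missing peak shows, and no depth per peak is in the files.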
